A study of Mus musculus with 6 samples.

Results

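Zinc handling was described through 6 genes in mouse tumour cells. These are the metallothioneins Mt1 and Mt2, the zinc-sensing transcription factor Mtf1, the zinc exporter Slc30a1 and the zinc importers Slc39a8 and Slc39a14. They were matched to the files by gene symbol, with no threshold on a measured value, and were 6 of the 18182 genes with values. Each symbol matched 1 gene, listed in all 6 libraries. The sorted tumour cells came from Lewis lung carcinoma (LLC), a single mouse lung cancer line, marked with red fluorescent protein (LLC-RFP) and grown under the skin of wild type C57BL/6 mice. In LLC alone (n = 3 libraries) the mice received LLC-RFP only, and in LLC with BMSCs (n = 3) they received LLC-RFP together with mouse bone marrow-derived mesenchymal stem cells (BMSCs). In both groups the red fluorescent cells were sorted from the primary tumours before RNA sequencing. The comparison asks how RNA levels in the tumour cells differed when BMSCs had been injected with them. The methods name female mice of 6 weeks of age for the tumour growth experiments and give no age for the sequenced tumours. The number of mice behind a library is not given in the sources used here, so p-values measure the spread between these libraries only.

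Metallothioneins are small cysteine-rich proteins that bind zinc and copper in the cytosol. When free zinc rises, Mtf1 binds metal response elements in DNA and raises transcription of the metallothioneins and of Slc30a1, which carries zinc out of the cell. Members of the Slc39a family carry zinc into the cytosol, from outside the cell or from organelles, and those of the Slc30a family carry it the other way. Slc39a8 and Slc39a14 also transport iron and manganese, and Slc39a14 in liver is known as a gene of the acute phase response.

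The libraries held 33476347 to 46189113 estimated fragment counts on genes. LLC alone replicate 3 stood apart: relative to the mean of all libraries, the median deviation of its log2 values was 0.31 in the shortest of 5 length classes of genes and -0.37 in the longest. In LLC alone replicates 1 and 2 these medians were 0.062 and 0.037 in the shortest class, and -0.022 and -0.0033 in the longest. In LLC with BMSCs replicates 1 to 3 they were -0.19, -0.091 and -0.11, and 0.18, 0.10 and 0.13. The trend thus also ran with the group, so removing it takes out any group difference that follows length. How much of the trend is technical was not tested. Mt1 and Mt2 are at the short end, since only 2.07% and 1.78% of tested genes had shorter transcripts. Mtf1 is at the long end, at the 94.1 percentile of length. Values are therefore also given with the trend over length taken out and without LLC alone replicate 3. LLC alone replicates 1 and 2 lay closer to each other than to replicate 3, as did LLC with BMSCs replicates 2 and 3 to replicate 1. Whether the closer libraries share mice or material is not given in the sources used here. If they do, the SDs and p-values are too small, and a fit with the closer libraries summed is given below. Markers of other cells moved with the group: summed CPM values (counts scaled by library total) of 11 BMSC and fibroblast markers were 358 to 426 in LLC alone and 785 to 833 in LLC with BMSCs, and all 9 that were tested were higher, while Thy1 and Cxcl12 were below the filter. The largest parts of this sum were Col3a1 (226 and 550 CPM on average) and Eng (97.0 and 118). Col1a1 (0.083 and 11.8) and Dcn (0.20 and 11.5) were near 0 in LLC alone. Which cells made these RNAs was not tested, so the sum is no measure of stromal content. The 8 macrophage markers summed to 24.1 to 28.8 and 36.0 to 38.6 CPM, with 6 higher and 1 lower, and the neutrophil markers to 0.43 to 0.72 and 17.7 to 20.4 CPM, with 5 of 5 tested higher. S100a8 (0.027 and 6.47 CPM on average), S100a9 (0.010 and 10.4), Mpo (0 and 0.52), Adgre1 (0 and 1.53) and Itgam (0.036 and 5.38) passed the filter on low counts only through LLC with BMSCs. For genes so near 0 in LLC alone, Col1a1 and Dcn included, being called higher was largely set by that filter. Of all tested genes 31.5% were called higher. None of the lymphocyte markers passed the filter on low counts, and neither of the 2 endothelial markers tested was called. Of 5 erythroid markers tested 3 were higher and 1 lower, and both epithelial markers that were tested were higher. Of the markers of the line's own lineage, Krt8 was abundant while Epcam, Cdh1, Nkx2-1 and Sftpc were near 0. The part of these markers in the results below was not tested, and fewer cells of a type and less RNA per cell cannot be told apart in such libraries.

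Of the 6 genes, Slc39a14 and Slc39a8 rose in LLC with BMSCs, Slc30a1 fell, and Mt1, Mt2 and Mtf1 did not pass the threshold. A gene is called when its p-value from edgeR's quasi-likelihood test, adjusted by the Benjamini-Hochberg method over all 13353 tested genes, is under 0.05. In this comparison 31.5% of all tested genes were called higher, 31.3% lower and 62.9% in either direction. With 2 of the 6 higher and 1 lower, the 6 genes were called at a rate near or below that background. Below it is also said where the groups overlap. The share of all genes or transcripts without overlap is not reported here, so a lack of overlap marks nothing particular to these genes. With the trend over transcript length removed, and likewise without LLC alone replicate 3, 3 of the 6 were higher and 2 lower. More genes were called throughout in these fits: 9331 of 13353 and 9275 of 13541 tested genes in either direction, against 8393 in the fit of all libraries. In the fit of all libraries the median log2 fold change of the 6 was 0.001, against 0.0121 over all tested genes. Levels are given in FPKM, fragments corrected for both transcript length and depth, which can be compared between genes.

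**Figure D1:**
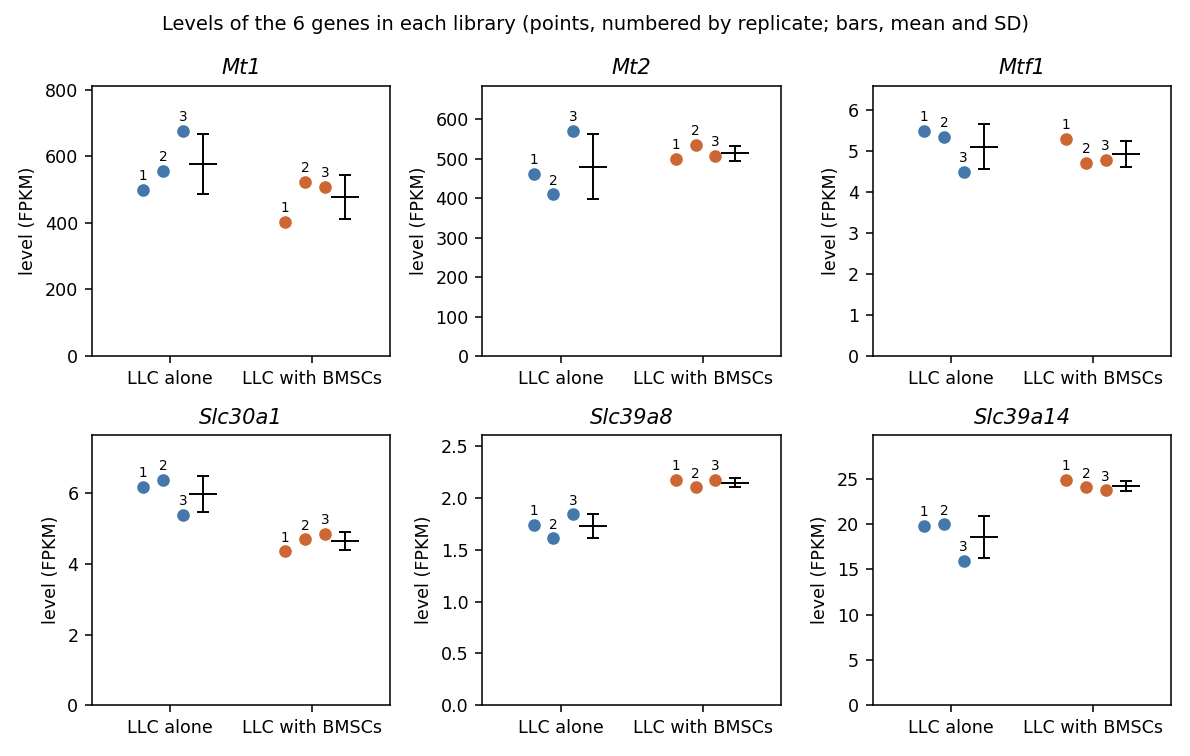
Levels in FPKM (linear axes from 0) of Mt1, Mt2, Mtf1, Slc30a1, Slc39a8 and Slc39a14 in the 3 libraries of LLC alone (blue) and the 3 of LLC with BMSCs (orange). Points carry replicate numbers and bars give the mean and SD. The groups overlap for Mt1, Mt2 and Mtf1 and do not overlap for the 3 transporters, of which Slc30a1 is lower (5.97 against 4.63 FPKM) and Slc39a8 (1.73 against 2.15) and Slc39a14 (18.6 against 24.2) higher in LLC with BMSCs. The share of all genes without overlap is not reported here, and 62.9% of all tested genes were called in either direction.

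The order of the levels was the same in both groups except within 2 pairs of neighbours, Mt1 with Mt2 and Slc30a1 with Mtf1. Mt1 and Mt2 ranked 139 and 148 among all genes by mean FPKM. Slc39a14 ranked 3927, Slc30a1 8174, Mtf1 8312 and Slc39a8 9977. The ranges of Mt1 and Mt2 overlapped in LLC alone and in LLC with BMSCs, and so did those of Slc30a1 and Mtf1. Each other step in the order was larger than the spread between libraries. The other metallothionein genes, Mt3 and Mt4, which are known mainly from brain and from stratified epithelium, stayed below the filter on low counts, at 0.06 to 0.34 FPKM for Mt3 and 0 to 0.19 FPKM for Mt4.

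Mt1 and Mt2 lie side by side on chromosome 8 (GRCm38.p6, Mt2 at 94172618 to 94173567 and Mt1 at 94178883 to 94180327), with 5315 bases between them. The windows around their RefSeq transcription start sites (250 bases before and 50 after), and that of Slc30a1 on chromosome 1, were searched for the core of the metal response element, TGCACNC or TGCGCNC, on both strands. The sequences are printed because these are the sites through which Mtf1 is known to act on these genes. Capitals mark the matches, those on the reverse strand in the letters of the strand shown. For Mt1 and Slc30a1 the start site used for the window lies inside the gene span given here and not at its first base.
Mt1, chr8:94178839-94179138, plus strand: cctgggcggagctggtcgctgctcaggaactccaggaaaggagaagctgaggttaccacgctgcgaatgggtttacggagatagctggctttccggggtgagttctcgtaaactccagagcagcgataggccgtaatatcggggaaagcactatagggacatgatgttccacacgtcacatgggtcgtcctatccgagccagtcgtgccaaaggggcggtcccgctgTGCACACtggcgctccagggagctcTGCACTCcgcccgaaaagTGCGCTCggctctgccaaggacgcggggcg
Mt2, chr8:94172368-94172667, plus strand: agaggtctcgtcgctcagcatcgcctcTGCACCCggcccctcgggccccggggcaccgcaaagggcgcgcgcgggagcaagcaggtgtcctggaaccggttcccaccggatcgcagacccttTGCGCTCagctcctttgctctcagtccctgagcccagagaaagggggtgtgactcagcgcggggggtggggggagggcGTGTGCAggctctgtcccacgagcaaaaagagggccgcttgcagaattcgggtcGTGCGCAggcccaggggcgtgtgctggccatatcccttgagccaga
Slc30a1, chr1:191906531-191906830, plus strand: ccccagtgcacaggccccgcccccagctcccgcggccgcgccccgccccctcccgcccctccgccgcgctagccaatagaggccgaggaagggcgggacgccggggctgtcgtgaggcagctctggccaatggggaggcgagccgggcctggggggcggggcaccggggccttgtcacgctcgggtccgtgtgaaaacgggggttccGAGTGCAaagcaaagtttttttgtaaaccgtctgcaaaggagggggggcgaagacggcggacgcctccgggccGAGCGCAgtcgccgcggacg
The window of Mt1 held 3 matches, all on the strand shown, that of Mt2 held 4, with 2 on each strand, and that of Slc30a1 held 2, both on the reverse strand. Among 32851 RefSeq start-site windows of this length, 25.7% held at least 1 match, 7.11% at least 2, 1.97% at least 3 and 0.517% at least 4. Slc39a8 had a pair of windows, 1 of them with 1 match, and the window of Mtf1 had 0. The core of a STAT site, TTCNNNGAA, which reads the same on both strands, was in 0 of these 6 windows and in 8.30% of all windows. A match is a stretch of letters and not a measured binding site.

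Mt1 was measured at 501, 558 and 677 FPKM in LLC alone replicates 1 to 3, and at 403, 524 and 509 FPKM in LLC with BMSCs replicates 1 to 3. LLC alone replicate 3 was the highest and LLC with BMSCs replicate 1 the lowest, and the groups overlapped. On average the level was 579 ± 90.0 and 479 ± 66.1 FPKM (mean ± SD, 3 libraries per group), and the fitted log2 fold change was -0.30 (SE 0.13, 95% CI -0.61 to 0.02, edgeR adjusted p = 0.0868, exact permutation p of the FPKM values = 0.3). The trend over transcript length alone amounted to -0.39 for a gene as short as Mt1. With that trend removed the log2 fold change of Mt1 was 0.10 (edgeR adjusted p = 0.216), and without LLC alone replicate 3 it was -0.16 (adjusted p = 0.198). Without LLC alone replicate 1 it was -0.39 and passed the threshold (adjusted p = 0.0431).

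Mt2 was measured at 461, 410 and 571 FPKM in LLC alone and at 499, 535 and 507 FPKM in LLC with BMSCs. The 3 values with BMSCs lay inside the range of LLC alone, where replicate 3 was again the highest. On average the level was 481 ± 82.4 and 514 ± 18.7 FPKM (mean ± SD, 3 libraries per group), and the fitted log2 fold change was 0.07 (SE 0.12, 95% CI -0.20 to 0.35, edgeR adjusted p = 0.607, exact permutation p = 0.5). With the length trend removed it was 0.49 (edgeR adjusted p = 5.96e-05), and without LLC alone replicate 3 it was 0.22 (adjusted p = 0.0108), both past the threshold. Without LLC alone replicate 2 the sign turned, at -0.03 (adjusted p = 0.803). On the opposite strand the annotation places exons of an antisense gene over 432 bases of Mt2 exons. Whether the counting used the strand is not given in the sources used here, so reads of the antisense gene could be part of the Mt2 value. No gene overlapped the exons of Mt1.

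Since Mt1 and Mt2 are nearly equal in length (583 and 556 bases), the ratio of the 2 genes within a library is little touched by the length trend. The ratio of Mt1 to Mt2 in FPKM was 1.09, 1.36 and 1.19 in LLC alone, and 0.807, 0.980 and 1.003 in LLC with BMSCs. Every library of LLC alone lay above every library of LLC with BMSCs. The mean ratios were 1.21 ± 0.14 and 0.930 ± 0.11 (mean ± SD, 3 libraries per group), a difference of -0.38 on the log2 scale. The exact two-sided permutation test gave p = 0.1, the smallest that this test can give with 3 against 3 libraries. The sum of the 2 genes was 1059 ± 164 FPKM without BMSCs and 993 ± 81.2 FPKM with them, and overlapped.

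**Figure D2:**
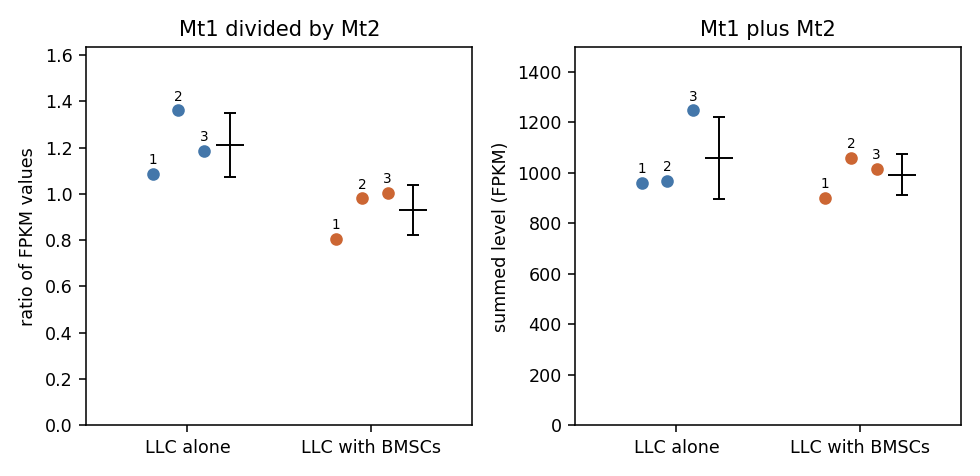
Left, the ratio of Mt1 to Mt2 (FPKM over FPKM) and right, their summed level (FPKM), per library of LLC alone (blue) and LLC with BMSCs (orange), with replicate numbers, mean and SD (axes from 0). The ratio is 1.09 to 1.36 in LLC alone and 0.807 to 1.003 in LLC with BMSCs, while the sums overlap.

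Mtf1, the zinc sensor, was measured at 5.48, 5.33 and 4.48 FPKM in LLC alone and at 5.28, 4.70 and 4.78 FPKM in LLC with BMSCs. LLC alone replicate 3 was the lowest of the 6 libraries, and the groups overlapped. On average the level was 5.10 ± 0.54 and 4.92 ± 0.31 FPKM (mean ± SD, 3 libraries per group), and the fitted log2 fold change was -0.07 (SE 0.089, 95% CI -0.28 to 0.14, edgeR adjusted p = 0.505, exact permutation p = 0.8). At the length of Mtf1 (7631 bases) the length trend alone amounted to 0.29. With it removed the log2 fold change was -0.36 (edgeR adjusted p = 0.000451), and without LLC alone replicate 3 it was -0.15 (adjusted p = 0.0452). The exons of Mtf1 (chromosome 4, 124802549 to 124849800) share 721 bases with 1110065P20Rik on the opposite strand. In 6 of 6 libraries both genes had counts that were not whole while their sum was whole within 0.02, so reads were divided between the 2 genes and the level of Mtf1 is uncertain to that extent. The estimated counts given to 1110065P20Rik, not scaled for depth, were 693, 531 and 992 in LLC alone and 431, 470 and 477 in LLC with BMSCs. Mtf1 had 1611 estimated counts on average in LLC alone and 1644 in LLC with BMSCs, also not scaled.

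Slc30a1 (ZnT1), the exporter at the plasma membrane and itself a target of Mtf1, fell in LLC with BMSCs. It was measured at 6.17, 6.36 and 5.39 FPKM in LLC alone and at 4.35, 4.69 and 4.85 FPKM in LLC with BMSCs. The groups did not overlap, although LLC alone replicate 3 lay closest to the other group. On average the level was 5.97 ± 0.51 and 4.63 ± 0.26 FPKM (mean ± SD, 3 libraries per group), and the fitted log2 fold change was -0.39 (0.765-fold, SE 0.077, 95% CI -0.57 to -0.21, edgeR adjusted p = 0.0031). The length trend runs the other way at its length of 5230 bases (0.19), and with that trend removed the log2 fold change was -0.57 (edgeR adjusted p = 2.51e-05). Over all 18 alternative fits (other scalings, filters, tests and sets of libraries) the value stayed between -0.58 and -0.31 and the gene stayed past the threshold. An antisense gene covers 468 bases of its exons (chromosome 1, 191906697 to 191913248).

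**Figure D3:**
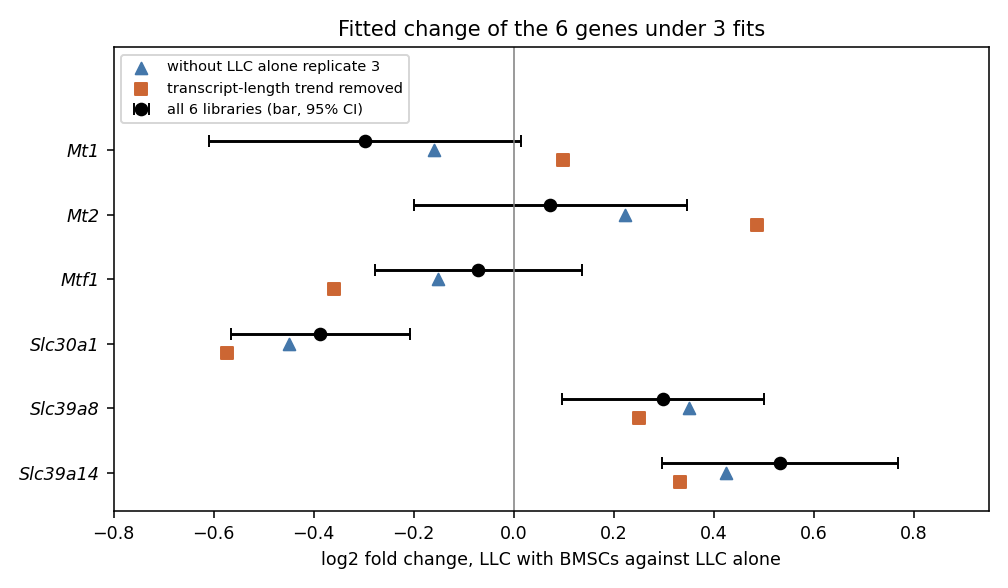
Log2 fold change of LLC with BMSCs against LLC alone for the 6 genes in the fit of all 6 libraries (black, bar gives the 95% CI), without LLC alone replicate 3 (blue triangles) and with the trend over transcript length removed (orange squares). Slc30a1 stays left of 0 and Slc39a8 and Slc39a14 right of it in all 3, Mt1 moves from -0.30 to 0.10, Mt2 from 0.07 to 0.49 and Mtf1 from -0.07 to -0.36.

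Slc39a8 (ZIP8), the importer of zinc, iron and manganese with the lowest level of the 6 genes, was measured at 1.74, 1.61 and 1.84 FPKM in LLC alone and at 2.17, 2.10 and 2.17 FPKM in LLC with BMSCs. All 3 libraries with BMSCs lay above all 3 without. On average the level was 1.73 ± 0.12 and 2.15 ± 0.040 FPKM (mean ± SD, 3 libraries per group), and the fitted log2 fold change was 0.30 (1.23-fold, SE 0.087, 95% CI 0.096 to 0.50, edgeR adjusted p = 0.0179). This value rests on 235 to 271 normalized counts per library in LLC alone and 305 to 319 in LLC with BMSCs. The call was lost without LLC alone replicate 2 (0.25, adjusted p = 0.0521) and without LLC with BMSCs replicate 3 (0.30, adjusted p = 0.0553), and with the closest replicates of each group summed (0.28, adjusted p = 0.108), while the direction stayed in all 18 alternatives. Its RefSeq transcripts with values share their coding exons and differ in a noncoding first exon on chromosome 3, at 135825657 to 135825800 (GRCm38) in one and at 135825790 to 135826083 in the other. The transcript with the first of these exons had 0.97, 0.95 and 1.17 FPKM in LLC alone and 0.66, 0.92 and 1.27 FPKM in LLC with BMSCs. The transcript with the second had 0.78, 0.66 and 0.68 FPKM in LLC alone and 1.51, 1.18 and 0.91 FPKM in LLC with BMSCs. In the second the groups did not overlap, in the first they did, and neither passed the threshold in an edgeR fit over transcripts (adjusted p = 0.0629 for the second and 0.708 for the first).

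Slc39a14 (ZIP14) gave the largest rise of the 6 genes in the fit of all 6 libraries, though not with the length trend removed, where Mt2 rose more. It was measured at 19.8, 20.0 and 15.9 FPKM in LLC alone and at 24.8, 24.0 and 23.7 FPKM in LLC with BMSCs. The groups did not overlap, and LLC alone replicate 3 was the lowest library. On average the level was 18.6 ± 2.30 and 24.2 ± 0.58 FPKM (mean ± SD, 3 libraries per group), and the fitted log2 fold change was 0.53 (1.45-fold, SE 0.10, 95% CI 0.30 to 0.77, edgeR adjusted p = 0.00248). In FPKM, which also corrects for the length given to the gene in each library (5083 to 5867 bases), the ratio of the means was 1.30. How much of the rise in counts goes with longer transcripts was not tested. The length trend alone amounted to 0.21 at the length of Slc39a14, and with that trend removed the log2 fold change was 0.33 (edgeR adjusted p = 0.000148). Without LLC alone replicate 3 it was 0.42 (adjusted p = 5.6e-05), and the gene was past the threshold in all 18 alternatives.

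The transcripts of Slc39a14 (minus strand of chromosome 14, 70303467 to 70351452) did not rise alike. Its RefSeq transcripts carry 1 of 2 alternative coding exons, which are known to give alternative forms of the transporter. They are called upstream and downstream here by their order in the gene. The RefSeq transcript with the downstream exon was measured at 15.1, 15.5 and 12.6 FPKM in LLC alone and at 14.6, 15.9 and 14.3 FPKM in LLC with BMSCs. These values overlapped (14.4 ± 1.57 and 15.0 ± 0.86 FPKM, mean ± SD). In the fit over transcripts, where 34.2% of 24255 tested transcripts were called in either direction, its log2 fold change was 0.02 (95% CI -0.21 to 0.24, edgeR adjusted p = 0.903).

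The RefSeq transcripts with the upstream exon together were measured at 1.59, 1.49 and 1.36 FPKM in LLC alone and at 4.66, 3.35 and 4.68 FPKM in LLC with BMSCs. The groups did not overlap, at 1.48 ± 0.12 and 4.23 ± 0.76 FPKM (mean ± SD, 3 libraries per group, exact permutation p = 0.1, the smallest possible). As a share of the RefSeq transcripts of the gene, the upstream exon had 9.53%, 8.77% and 9.74% in LLC alone and 24.2%, 17.4% and 24.7% in LLC with BMSCs. The mean share was 9.34 ± 0.51% and 22.1 ± 4.06% (mean ± SD, 3 libraries per group, exact permutation p = 0.1). LLC with BMSCs replicate 2 had the lowest share of its group and still lay above every library of LLC alone.

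Within the upstream-exon transcripts the first exon differed too. The form that begins at the noncoding exon at 70348323 to 70348431 was at 0.45, 0.04 and 0.01 FPKM in LLC alone and at 4.66, 3.35 and 4.24 FPKM in LLC with BMSCs, and its rise passed the threshold in the fit over transcripts (log2 fold change 4.57, SE 1.22, edgeR adjusted p = 0.035). The form that begins at the exon at 70351280 to 70351425, which the downstream-exon transcript also uses, was at 1.14, 1.45 and 1.35 FPKM in LLC alone. With BMSCs it was listed at 0 in replicates 1 and 2 and was at 0.44 FPKM in replicate 3, a difference that did not pass the threshold (adjusted p = 0.23). Another 4 transcripts of the gene were assembled by the authors' pipeline, and their exons were not used here. They took 14.3 ± 1.85% of the gene's FPKM in LLC alone and 20.7 ± 1.40% in LLC with BMSCs. They did not move alike. One was at 1.92, 1.69 and 1.57 FPKM in LLC alone and was listed at 0 in all 3 libraries with BMSCs (edgeR adjusted p = 0.000474), and another went from 0.91 ± 0.47 to 3.95 ± 0.21 FPKM (adjusted p = 0.0161). If the first of these carried the upstream exon and the other assembled transcripts the downstream one, the upstream share of the whole gene would be 17.4 ± 1.28% in LLC alone and 17.5 ± 3.10% with BMSCs. If all 4 carried the downstream exon it would be 8.01 ± 0.54% and 17.5 ± 3.10%, and if all 4 carried the upstream exon 22.3 ± 1.52% and 38.2 ± 3.90%. The difference in exon use therefore holds for the RefSeq transcripts, and for the gene as a whole it depends on the exons of the assembled ones. Transcripts that share most of their exons also share most of their reads, so each share rests on the authors' model of how to divide them.

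**Figure D4:**
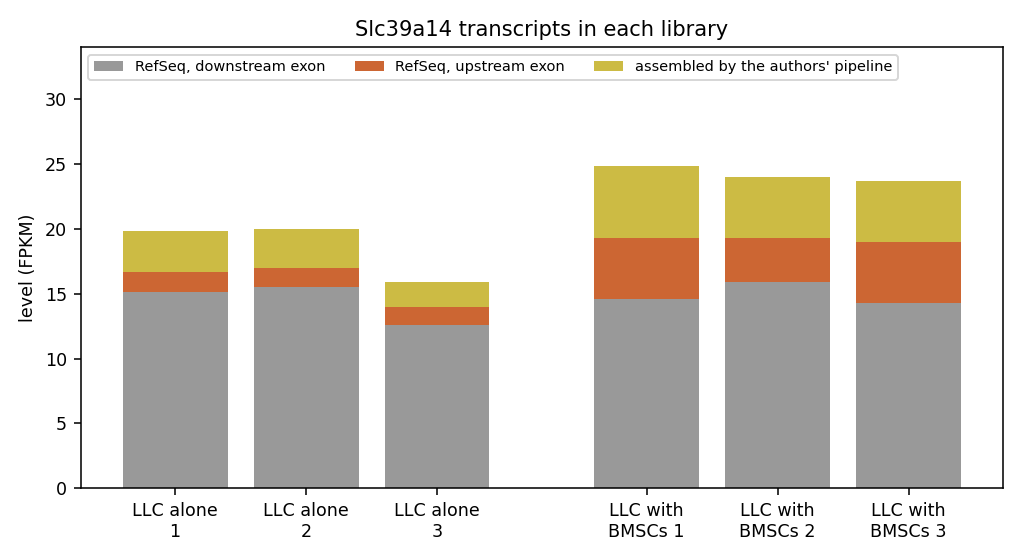
Stacked bars give the FPKM of Slc39a14 in each library (axis from 0), split into the RefSeq transcript with the downstream exon (grey), the RefSeq transcripts with the upstream exon (orange) and transcripts assembled by the authors' pipeline (yellow). The grey part averages 14.4 FPKM in LLC alone and 15.0 FPKM with BMSCs, while the orange part goes from 1.48 to 4.23 FPKM and the yellow part from 2.68 to 5.003 FPKM.

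The whole families of zinc transporters were counted too, with the 3 member transporters included. Of 10 Slc30a genes, which lower cytosolic zinc, 7 were tested, 2 were higher and 3 lower, 28.6% and 42.9% against 31.5% and 31.3% of all tested genes, and the median log2 fold change was -0.004. The remaining 3 did not exceed 0.02 FPKM in any library. Slc30a2, 1 of the 3 lower, was near 0, at 0.127 ± 0.031 and 0.027 ± 0.006 FPKM and 10.7 normalized counts on average. It passed the filter on low counts only through LLC alone. With at least 10 counts required in every library, 2 Slc30a genes were lower. Slc30a4 (ZnT4), which moves zinc into vesicles, was the most abundant, at 257, 260 and 213 FPKM in LLC alone and at 95.5, 97.1 and 95.8 FPKM with BMSCs. It fell by 1.36 on the log2 scale (SE 0.083, edgeR adjusted p = 8e-06) and made up 77.0 ± 1.79% of the summed FPKM of the family in LLC alone and 54.7 ± 1.08% in LLC with BMSCs. The annotation places an antisense transcript over 130 bases of its exons. Without Slc30a4 the family summed to 72.1 ± 1.01 FPKM without BMSCs and 79.6 ± 3.75 FPKM with them (mean ± SD, 3 libraries per group). Slc30a7 of the Golgi (7.19 ± 0.46 and 9.82 ± 0.11 FPKM) and Slc30a9 (22.5 ± 0.51 and 27.7 ± 1.24 FPKM) were the 2 that rose. The rise of Slc30a7 went from 0.43 to 0.09 on the log2 scale once the length trend was removed and was then not called (edgeR adjusted p = 0.403). Slc30a1 was thus a minor part of the family's RNA, and its fall of 0.39 was smaller than that of Slc30a4.

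Of 14 Slc39a genes, which raise cytosolic zinc, 11 were tested, 6 were higher and 3 lower, 54.5% and 27.3% against 31.5% and 31.3% of all tested genes, and the median log2 fold change was 0.298. The members Slc39a8 and Slc39a14 were among the higher ones, and the median was the value of Slc39a8 itself. Neither the count nor the median is therefore a separate background for the members. Slc39a4, also among the higher ones, was at 0.057 ± 0.015 and 0.39 ± 0.038 FPKM. The 3 untested genes did not exceed 0.14 FPKM. Slc39a10, an importer at the plasma membrane, was at 8.82, 9.26 and 7.39 FPKM in LLC alone and at 23.1, 23.7 and 23.3 FPKM in LLC with BMSCs, a log2 fold change of 1.44 (SE 0.086, edgeR adjusted p = 7.54e-06). Slc39a1, also of the plasma membrane, went from 41.4 ± 2.56 to 69.0 ± 2.03 FPKM (log2 fold change 0.72, edgeR adjusted p = 6.92e-05). Slc39a3 fell from 6.23 ± 0.29 to 3.58 ± 0.14 FPKM (-0.70, edgeR adjusted p = 4.26e-05). Slc39a7 of the endoplasmic reticulum, the most abundant of the family, was at 84.6 ± 3.88 and 86.7 ± 2.53 FPKM and was not called. Summed over the family, Slc39a RNA was 233 ± 4.27 FPKM without BMSCs and 276 ± 6.41 FPKM with them (mean ± SD, 3 libraries per group). The fitted rises of Slc39a8 and Slc39a14 were both smaller than those of Slc39a10 and Slc39a1. In all 18 alternatives Slc30a4 and Slc39a3 stayed lower and Slc39a1 and Slc39a10 higher, past the threshold each time.

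**Figure D5:**
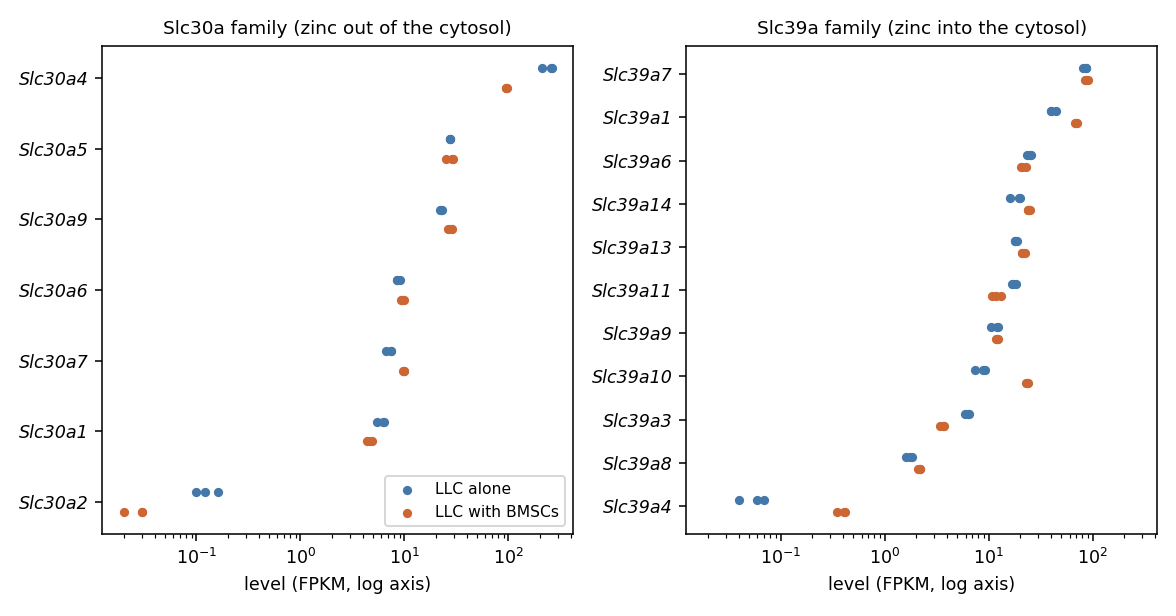
FPKM (log axis) of each tested Slc30a gene (left) and Slc39a gene (right) in the 3 libraries of LLC alone (blue) and the 3 of LLC with BMSCs (orange), 1 point per library. Slc30a4 stands lower (243 against 96.1 FPKM on average) and Slc39a10 higher (8.49 against 23.4 FPKM) in LLC with BMSCs.

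Genes of other metals that share these proteins were counted as well. Of 15 copper-handling genes tested, 4 were higher and 7 lower (26.7% and 46.7%, against 31.5% and 31.3% of all tested genes), with a median log2 fold change of -0.27. Among the higher ones, Atp7b (0.05 and 0.55 FPKM on average) and Steap4 (0.02 and 0.37) were near 0 in LLC alone. Sco2, which loads copper into cytochrome c oxidase, fell from 8.34 ± 0.40 to 3.06 ± 0.28 FPKM and Cox17, a copper chaperone of the same enzyme, from 140 ± 17.1 to 75.3 ± 4.74 FPKM (edgeR adjusted p = 1.49e-05 and 0.000129). Of 20 iron and manganese genes, metals that Slc39a8 and Slc39a14 also carry, 15 were tested, 8 were higher and 4 lower (53.3% and 26.7%), with a median of 0.33. The higher ones include Slc11a1 (0.25 and 0.92 FPKM on average) and Tfr2 (0.057 and 0.24), both at low levels. In the limma fits with a filter on low FPKM values, 6 were higher. Slc11a2 (DMT1), an importer of iron and manganese, rose from 14.5 ± 0.35 to 27.5 ± 0.69 FPKM, and the ferroxidase Cp from 22.8 ± 1.46 to 95.7 ± 3.72 FPKM (edgeR adjusted p = 4.8e-06 and 5.46e-07). Lcn2, which binds iron-carrying siderophores, rose from 14.9 ± 1.88 to 66.1 ± 3.09 FPKM, while the ferritin light chain Ftl1 fell from 1695 ± 196 to 909 ± 33.7 FPKM (edgeR adjusted p = 2.11e-06 and 8.07e-05).

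Metallothionein genes are known to respond to glucocorticoids and to low oxygen as well as to zinc, so lists of other genes that do so were counted. Of 14 glucocorticoid-responsive genes tested, 6 were higher and 6 lower (42.9% each, against 31.5% and 31.3% of all tested genes), with a median log2 fold change of -0.04. Tsc22d3, a classical target of the glucocorticoid receptor, was at 22.2 ± 2.58 and 12.6 ± 1.35 FPKM (edgeR adjusted p = 0.000323), and Sgk1 at 35.4 ± 0.64 and 66.9 ± 0.65 FPKM (adjusted p = 6.52e-06). Of 15 hypoxia-responsive genes tested, 11 were higher and 1 lower (73.3% and 6.67%), with a median of 0.81. Bnip3, a mitophagy receptor induced by low oxygen, gave the largest rise of this list, at 33.97 ± 2.16 and 118 ± 7.74 FPKM (edgeR adjusted p = 1.55e-06). Vegfa was the 1 that was lower, and Car9, Ndrg1 and Pgk1 were not called. Mt1 and Mt2 were not called in the same fit, while Mt2 was called higher with the length trend removed (0.49, edgeR adjusted p = 5.96e-05). A part of glucocorticoids or low oxygen in the metallothionein levels was not tested.

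The genes whose levels ran most like those of each member over the 6 libraries were found by the root mean square distance of log2 CPM values, each centred on its own mean, among genes with at least 100 normalized counts on average. For Mt1 these were Minos1, Ift20 and Pex7, at distances of 0.044 to 0.053. For Mt2 they were Mrpl52, Cby1 and Pdcd5, at 0.033 to 0.040. The nearest for Mtf1 were Pcdhgc5, Pip4k2b and Wiz, at 0.015 to 0.019. Slc30a1 ran closest to Xndc1, Nr1d2 and Ccdc47 (0.027 to 0.032), Slc39a8 to Clk2-scamp3, St6galnac6 and Spns2 (0.025 to 0.028) and Slc39a14 to Klf13, Uhrf1bp1l and Gnptab (0.018 to 0.022). None of the 6 members was among the 3 nearest genes of another. The CPM values were not corrected for the length trend, which amounted to -0.39 for Mt1 and -0.40 for Mt2. Nearness to these genes can thus follow transcript length, which was not tested.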

How the data were processed

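RNA of sorted LLC cells was sequenced in 6 libraries, 3 per group, grouped by the sample labels, which give no batch. Per the labels, the submitters' processing notes name HISAT, StringTie, Cufflinks and GATK, with no versions, and the build mm8. Which program made which value is not given in the sources used here. The authors deposited estimated counts (also called expected counts) for genes and transcripts without normalization, often not whole numbers, and FPKM values scaled by transcript length and library total. Reads that fit several transcripts are divided among them, so overlapping genes and similar transcripts can exchange reads. No column was left unused for want of a sample. The symbols of 27 genes, stored as dates, were restored, and 1151 genes had none.

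Estimated counts were rounded and tested in edgeR 4.0.16 (R 4.3.3) with TMM scaling, its default filter, the quasi-likelihood test and Benjamini-Hochberg adjustment at 0.05 over 13353 genes. Normalized counts are CPM scaled to the mean effective library size. Medians of a list are over its tested genes. FPKM values of single genes were compared by exact two-sided permutation over 10 splits, which cannot give p below 0.1. Sequences came from RefSeq (GRCm38.p6, start-site windows for 5 of the 6 members), and exons from the GRCm38 annotation matched to RefSeq. The sequences of the alternative Slc39a14 exons are not reported here. Coordinates are from those and not from the authors' build. On simulated counts of this comparison, 200 genes with a planted log2 change of 1 were set among 13166 tested genes. edgeR recovered 185 of them with 13 false calls. With a trend over transcript length also planted (13163 tested genes), it recovered 137 with 0 false calls. Once the planted trend was removed, edgeR recovered 179 with 5 false calls. In the sequenced libraries the length trend also ran with the group. Whether the planted trend did so is not reported here. The 0 false calls therefore cannot show how many calls in the real comparison follow length. The 6 members and all lists were chosen with earlier results of these data known, and so support nothing by their choice. Genes named beyond the members were the 5 largest rises and 5 largest falls in the metal lists with at least 100 normalized counts on average, the 3 genes nearest to each member, and cell type markers. Other genes were named after their values were seen.

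Alternatives were DESeq2 1.42.0, no TMM, upper-quartile scaling, no filter, at least 10 counts in every library, limma 3.58.1 on FPKM values (pseudocounts of 1 and 0.1, genes reaching 1 FPKM in 3 libraries, and a pseudocount of 1 with no filter), removal of a lowess trend over transcript length in each library, leaving out each library, a replicate block with and without removal of the length trend, a stricter threshold, and summing the closest replicates of each group. The fit over transcripts and the exon shares were added after seeing the data. Same-numbered replicates were checked for pairing: their deviations from the group means correlated at 0.08, -0.11 and 0.06, so the numbers were not taken to pair the libraries.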

Additional observations from a re-analysis of the deposited data

How the results depend on the processing

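Slc30a1 and Slc39a14 kept their direction and their call in all 18 alternatives, and the 7 alternatives of the Mt1 to Mt2 ratio kept its log2 difference between -0.46 and -0.28. In all, 379 of 428 recomputed values stayed on the same side of their threshold and in the same direction, or within 1.5 times a count. For the Mt1 to Mt2 ratio and the exon share of Slc39a14, staying meant the same direction and a shift smaller than an SD between libraries of a group. With the length trend removed, Mt1 reversed to 0.10, Mt2 (0.49) and Mtf1 (-0.36) passed the threshold, and 3 members were higher and 2 lower. In that fit 9331 of 13353 tested genes were called in either direction. With the replicate block, Mt1 passed the threshold at -0.29 (adjusted p = 0.0198), which made 2 members lower, and no other member's call changed, while 0 hypoxia-responsive genes were lower. The replicate block together with the length correction gave Mt1 0.10, Mt2 0.49, Mtf1 -0.36 and 2 members lower. With the closest replicates summed, Mt2 was at -0.0088 and Slc39a8 at 0.28 (adjusted p = 0.108, no longer called), 1 member was higher, and 1 Slc30a gene was higher and 0 hypoxia-responsive genes lower. Copper genes called higher numbered 2 with at least 10 counts in every library and in both limma fits on FPKM with a filter on low values, where fewer genes were tested. Leaving out 1 library at a time gave -0.39 to -0.16 for Mt1, -0.032 to 0.22 for Mt2, -0.15 to -0.018 for Mtf1 and 0.25 to 0.35 for Slc39a8, with 1 to 3 members higher, 1 to 2 lower and 0 to 1 hypoxia-responsive genes lower. LLC alone replicate 3 decided Mt2 and Mtf1, LLC alone replicate 1 decided Mt1, and LLC alone replicate 2 and LLC with BMSCs replicate 3 decided Slc39a8. With the threshold at 0.001 and a change of 1 or more on the log2 scale in either direction also required, 910 genes were higher and 723 lower. Of the members 0 were then higher and 0 lower, of Slc30a genes 0 higher and 2 lower, of Slc39a genes 2 higher and 0 lower, of copper genes 2 higher and 1 lower, and of iron and manganese genes 5 higher and 0 lower. Among these, Slc30a2 (lower) and Slc39a4, Atp7b, Steap4, Slc11a1 and Tfr2 (higher) were below 1 FPKM in every library. Of glucocorticoid-responsive genes 3 were higher and 0 lower, and of hypoxia-responsive genes 5 higher and 0 lower. The share of Slc39a14 on the upstream exon, whose alternatives were chosen after seeing the data, differed by 12.7 percentage points between groups, by 9.47 with the assembled transcripts in the total, by 15.9 with all of these counted with the upstream exon, by 0.13 with only the one listed at 0 with BMSCs so counted, and by 11.4 to 15.1 with each library left out. Where no value above shows it, the cause was not tested. The 95% CIs of Mt1, Mt2 and Mtf1 in the fit of all libraries include 0.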
